A study of Mus musculus with 32 samples.

Results

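Subcutaneous white fat of sham-operated mice was compared across lights on: 4 libraries taken at zeitgeber time (ZT) 1, an hour into the light phase, against 4 taken at ZT19, in the dark phase. These 8 libraries, each from a separate mouse, were picked by their labelled operation and time from a series of 32. The series holds 4 mice at each of ZT1, ZT7, ZT13 and ZT19 after a sham operation or after vertical sleeve gastrectomy (VSG), a stomach-reducing operation, with fat collected on postoperative day 9. All animals were C57BL/6J mice, an inbred strain that carries no engineered allele, and their age was not given in the sources used here. Both operations shared the same feeding around surgery, with a liquid diet before and after it and a high-fat diet offered as a choice on day 4. The question here was what distinguishes ZT1 from ZT19 in fat of animals that kept their stomach.

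The mammalian clock is a transcriptional loop. The activators BMAL1 (gene Arntl) and CLOCK, or its relative NPAS2, bind E-box sequences and turn on the Per and Cry genes, whose proteins then shut the activators off. A second loop runs through the nuclear receptors REV-ERB (Nr1d1, Nr1d2), which repress Arntl and Npas2, and ROR, such as Rora and Rorb, which activate them. Output factors such as DBP, TEF and HLF bind D-box sequences and pass the rhythm on. In fat, clock genes cycle alongside genes of lipid synthesis, glucose use and hormone secretion, and they also respond to feeding and to glucocorticoids, the adrenal steroids that peak in mice around the start of the night.

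The libraries held 21.6 to 36.7 times 1e6 reads assigned to genes, at ZT1 23.7 to 34.6 and at ZT19 21.6 to 36.7. Values are the deposited normalised read counts, and a fold change is a difference of log2(value + 1), ZT1 minus ZT19, which understates the change of low genes. All adjusted p-values are from limma over 15588 genes unless another tool is named, errors of fold changes are SE, and a gene is called at an adjusted p under 0.05. Adipocyte genes such as Adipoq, Plin1 and Fabp4 were detected at high levels in every library. The 12 genes of the adipocyte list had a mean log2 level of 15.65, 16.49, 16.33 and 16.22 in ZT1 replicates 1 to 4, against 16.52, 16.44, 16.82 and 16.74 in ZT19 replicates 1 to 4. The names of the libraries carry a first number that goes with time, so whatever else it stands for and time cannot be told apart.

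3 libraries stood apart. ZT1 replicate 1 was rich in lymphocyte genes: the 14 measured B cell and lymph node genes had a mean log2 level of 12.05 there, 6.21 to 7.0 in the other ZT1 libraries and 5.32 to 6.32 at ZT19. All 14 were on the positive side at ZT1, with a median of 2.35, and none was called by limma or DESeq2. DESeq2 gave a p-value for 15151 of the 15588 genes, and whether these 14 were among them was not checked. edgeR called 9 of the 14 higher with a median of 4.80. In limma the median was 1.15 without ZT1 replicates 1 and 4. Their summed level ran from 14438 to 104465 at ZT1, against 8382 to 53985 at ZT19. Its 11 T cell genes summed to 32785, against 533 to 654 in the other ZT1 libraries and 340 to 1015 at ZT19, and no B or T cell gene was at 0 in any library. ZT1 replicate 4 was rich in skeletal muscle genes, which summed to 5140 there, 903 to 1331 in the other ZT1 libraries and 611 to 855 at ZT19. The muscle markers Ckm and Myh4 were at 358 and 735 in that library and at 0 in at least 1 other ZT1 library. It also had the most macrophage signal, a mean log2 level of 12.26 against 10.36 to 11.15 in the other 7 libraries. ZT19 replicate 4 was rich in genes of heat-producing fat: Ucp1, the uncoupling protein of brown adipocytes, was at 1352 there and at 5.27 to 24.8 in the others. In bulk tissue, fewer cells of a type and less RNA per cell cannot be told apart.

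**Figure D1:**
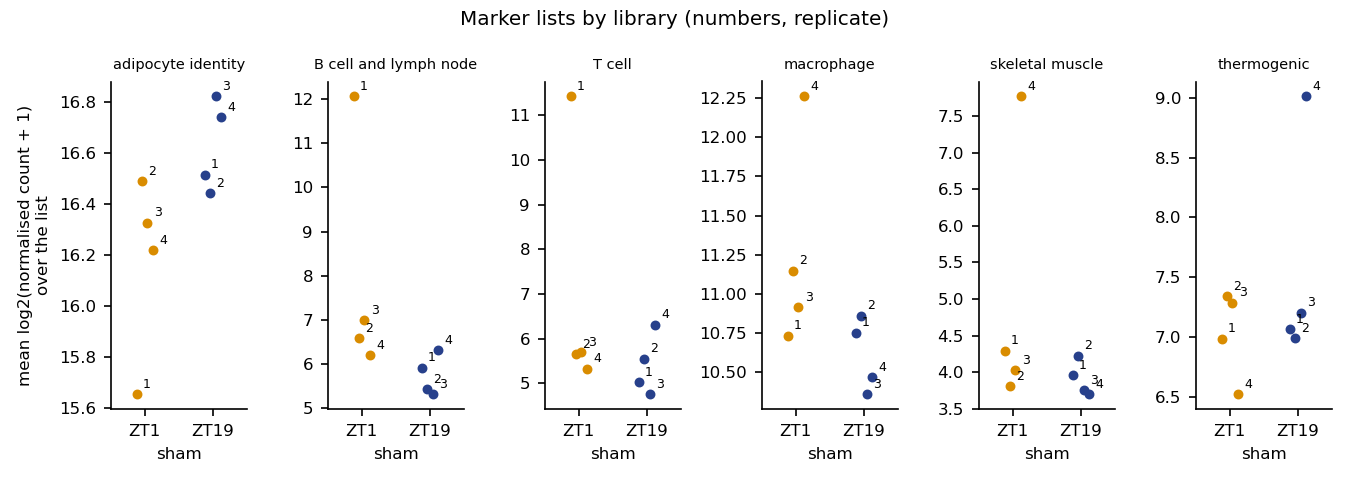
Mean log2(normalised count + 1) over 6 gene lists (y axis) in each sham library at ZT1 (left) and ZT19 (right); the small number beside a point is the replicate. ZT1 replicate 1 is high for B and T cell genes, ZT1 replicate 4 for muscle and macrophage genes and ZT19 replicate 4 for thermogenic genes.

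The labels record a weight loss for each animal, with no unit. It was 2.63, 2.15, 2.32 and 8.96 at ZT1, against 3.59, 7.16, 5.90 and 7.89 at ZT19. The animal with the highest value of all was ZT1 replicate 4, the library rich in muscle genes, while the other 3 ZT1 animals had lost less than any ZT19 animal. Means were 4.02 ± 3.30 at ZT1 and 6.14 ± 1.89 at ZT19 (SD, n = 4 each), a difference of -2.12 with a two-sided exact permutation p of 0.343, where 0.0286 is the smallest p that 4 against 4 allows. Without ZT1 replicate 4 the difference was -3.77 (exact permutation p = 0.0571, the smallest possible with 3 against 4). Its part in the results below was not tested beyond the fit that holds weight loss as a covariate, which called 239 genes. These were 105 higher and 134 lower at ZT1, and 160 of them were among the 296 genes called below without that covariate.

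Of the 15588 genes tested, 296 (1.9%) were called between ZT1 and ZT19: 92 (0.59%) were higher at ZT1 and 204 (1.31%) were lower. Most were protein coding (280), 39 were at least 2-fold higher and 69 at least 2-fold lower. In 275 of the 296 the 4 values at ZT1 and the 4 at ZT19 did not overlap, a separation that 7.29% of all tested genes showed. The genes that fell included clock repressors and outputs, glucocorticoid targets and genes of glucose, lipid and amino acid use, and those that rose included Npas2 and Nr1d1. The other steps of the day, which share samples with this one and were tested in the same model, gave fewer calls. These were 19 for ZT7 against ZT1, 8 for ZT13 against ZT7 and 10 for ZT19 against ZT13. Genes at an unadjusted limma p under 0.05 numbered 1637, 1233 and 1159 in those steps, against 3047 here. Those steps were not run in the alternative settings, in some of which the 296 fell to 8 or fewer.

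The number of calls depended on single libraries. Without ZT19 replicate 3, or without ZT19 replicate 4, Per2 was the only gene called, and without ZT1 replicates 1 and 4 together 135 genes were called, 63 of them among the 296. Without ZT1 replicate 1 the count was 168, without ZT19 replicate 2 it was 192 and without ZT1 replicate 3 it was 596. Quantile normalisation gave 350 calls, 73 higher and 277 lower, a more lopsided split. edgeR gave 206 higher and 244 lower, and DESeq2 gave 697 higher and 614 lower, so the majority of falls did not hold with DESeq2. Each of the 296 genes kept its sign in every alternative that was run.

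The promoters of clock genes are shown because genes called below lie on both sides of the loop that E-boxes, D-boxes and ROR elements join. RefSeq gives a window for 22 of the 26 clock genes described here, from 250 bases before to 50 after a start site, and 9 genes held at least 1 of 4 motifs searched on both strands: the E-box CACGTG, the D-box TTANGTAA, the ROR element ANNTNGGTCA and the cyclic AMP response element TGACGTCA. Among the 11639 tested genes with a window these motifs occurred in 11.2%, 1.86%, 2.37% and 3.36%, in that order. A window was found for 74.7% of tested genes, among them 69 of the 92 called higher at ZT1 and 149 of the 204 called lower. E-boxes occurred in 13.04% of the higher and 12.75% of the lower genes with a window, and D-boxes in 1.449% and 2.013%. ROR elements occurred in 1.449% and 0%, and cyclic AMP response elements in 4.348% and 2.013%. Whether these shares differ from those of all tested genes was not tested. The share with any of the 4 motifs was not taken over all tested genes, so the 9 of 22 clock genes cannot be read against it. The 250 bases upstream of the start site are given 5′ to 3′ on the gene's own strand (RefSeq, GRCm38.p6), with motifs in capitals: D-boxes in Per3, an E-box in Cry1 and in Tef, a cyclic AMP response element in Hlf, and E-boxes in Ciart, a repressor that was not called.
Per3 (chr4:151044666-151044915, minus strand): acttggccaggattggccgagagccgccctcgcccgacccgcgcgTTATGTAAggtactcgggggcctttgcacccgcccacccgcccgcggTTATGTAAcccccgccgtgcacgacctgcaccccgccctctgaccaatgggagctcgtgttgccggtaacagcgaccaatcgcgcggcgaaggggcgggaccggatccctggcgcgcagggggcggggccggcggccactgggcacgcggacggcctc
Cry1 (chr10:85185055-85185304, minus strand): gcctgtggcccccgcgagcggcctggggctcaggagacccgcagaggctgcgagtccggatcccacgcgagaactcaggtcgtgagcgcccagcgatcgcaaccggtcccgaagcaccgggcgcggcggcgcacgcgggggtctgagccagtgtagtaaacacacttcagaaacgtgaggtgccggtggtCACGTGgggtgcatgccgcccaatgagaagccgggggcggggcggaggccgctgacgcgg
Tef (chr15:81811164-81811413, plus strand): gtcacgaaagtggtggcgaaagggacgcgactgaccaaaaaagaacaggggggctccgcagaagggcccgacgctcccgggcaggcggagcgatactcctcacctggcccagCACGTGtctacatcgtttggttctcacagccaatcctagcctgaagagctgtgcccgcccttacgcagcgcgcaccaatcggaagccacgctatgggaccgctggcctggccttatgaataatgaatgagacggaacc
Hlf (chr11:90390918-90391167, minus strand): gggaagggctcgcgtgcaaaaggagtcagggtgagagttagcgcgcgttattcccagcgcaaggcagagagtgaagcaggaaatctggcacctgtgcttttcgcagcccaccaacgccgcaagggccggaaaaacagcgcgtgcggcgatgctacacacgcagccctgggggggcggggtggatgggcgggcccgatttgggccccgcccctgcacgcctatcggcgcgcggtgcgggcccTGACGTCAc
Ciart (chr3:95882229-95882478, minus strand): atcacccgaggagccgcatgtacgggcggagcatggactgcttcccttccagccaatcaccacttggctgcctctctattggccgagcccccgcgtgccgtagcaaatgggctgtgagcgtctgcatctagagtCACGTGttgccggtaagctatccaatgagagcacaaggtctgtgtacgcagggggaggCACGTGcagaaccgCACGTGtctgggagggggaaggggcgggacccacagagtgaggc

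Distances count from the start site. The D-boxes of Per3 begin at -205 and -158, the E-box of Cry1 at -60 and that of Tef, in the window shown, at -138. The element of Hlf begins at -9, and the 3 E-boxes of Ciart at -116, -58 and -44. A second Tef window holds an E-box at -127, and the Per1 window 1 at -166. A match describes these letters and not a bound site.

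Among the 12 clock repressors, 3 were lower at ZT1, 1 was higher and 8 were not called, beside 1.9% called among all genes. Per2, a core inhibitor of the activators (chromosome 1, 91415982 to 91459324, minus strand, mm10), had the smallest adjusted p of all named genes. It stood at 220, 293, 205 and 215 at ZT1, against 658, 720, 994 and 1201 at ZT19. The highest ZT1 library was below the lowest ZT19 library by a wide margin, and Per2 fell by 1.91 ± 0.19 on the log2 scale, or 3.75-fold (adjusted p = 3.78e-04). Per2 was called in 23 of 24 alternatives, among them each of the 8 that left out a library, and missed the threshold when the 8 libraries were fitted alone.

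Per3, a period protein that binds the same partners, was at 593, 728, 637 and 1038 at ZT1, against 1334, 1351, 1810 and 1855 at ZT19. Every ZT1 value was below every ZT19 value, and Per3 fell by 1.10 ± 0.18 (adjusted p = 0.0213). Cry1, the cryptochrome that acts latest in the loop, was at 401, 341, 416 and 286 at ZT1, against 548, 648, 697 and 808 at ZT19. Its groups did not overlap either, and it fell by 0.90 ± 0.14 (adjusted p = 0.0213). Per1, which also answers directly to glucocorticoids and cyclic AMP, was at 1135, 915, 1353 and 1035 at ZT1, against 1258, 1160, 3140 and 2817 at ZT19. The ZT19 libraries split into a low and a high pair, the low pair lay inside the ZT1 range, and the log2 difference of -0.79 ± 0.28 was not called (adjusted p = 0.144). Cry2 differed by -0.34 ± 0.14 (adjusted p = 0.198).

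Nr1d1, the REV-ERB gene, went the other way. It was at 1585, 4008, 2313 and 3809 at ZT1, against 1691, 1224, 909 and 848 at ZT19. ZT1 replicate 1, the library rich in lymphocyte genes, lay below ZT19 replicate 1, and the other 3 ZT1 libraries lay above the whole ZT19 group. The rise was 1.28 ± 0.26 (adjusted p = 0.0278), and 1.44 without ZT1 replicates 1 and 4 (adjusted p = 0.0317). Nr1d1 overlaps Thra on the opposite strand, and the counting's use of strand was not given in the sources used here. Its paralog Nr1d2 differed by 0.32 ± 0.20 (adjusted p = 0.402). The remaining repressors and modifiers, Ciart, Bhlhe40, Bhlhe41, Csnk1d and Csnk1e, ranged from -0.41 to 0.38 and none was called.

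Of the 6 activators, 1 was higher at ZT1 and 5 were not called, too few calls to read against the 0.59% called higher among all genes. Npas2, a partner of BMAL1 (chromosome 1, 39193731 to 39363236, plus strand, mm10), was at 150, 208, 223 and 261 at ZT1, against 63.3, 104, 75.9 and 79.2 at ZT19. The groups were fully apart and Npas2 rose by 1.37 ± 0.24, or 2.58-fold (adjusted p = 0.0213). Arntl was at 849, 731, 856 and 986 at ZT1, against 551, 802, 736 and 737 at ZT19. These ranges overlapped, and the difference of 0.28 (95% interval -0.09 to 0.65) was not called (adjusted p = 0.385). Clock differed by 0.11 (interval -0.10 to 0.31, adjusted p = 0.571).

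**Figure D2:**
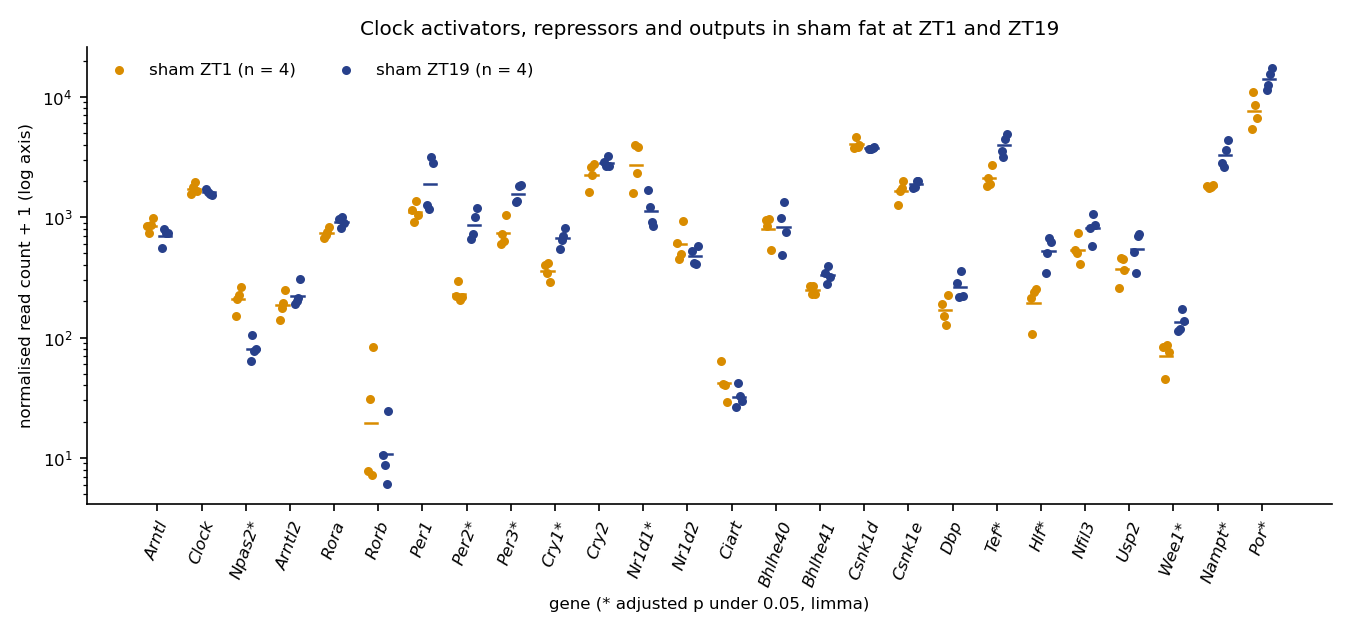
Normalised read count + 1 on a log axis for the 26 clock genes, each point 1 mouse at ZT1 (orange, left) or ZT19 (blue, right), bars the mean of log values; an asterisk marks genes called by limma. Per2, Per3, Cry1 and the outputs Tef, Hlf, Wee1, Nampt and Por are lower at ZT1, and Npas2 and Nr1d1 are higher.

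All 8 clock outputs had a lower mean at ZT1, with a median of -0.88 against 0.02 over all genes. Of these, 5 were called, beside 1.31% called lower among all genes. Tef was at 1807, 2123, 1874 and 2692 at ZT1, against 3562, 3165, 4469 and 4934 at ZT19, with no overlap, and fell by 0.92 ± 0.16 (adjusted p = 0.0213). Hlf, a related D-box factor, was at 214, 106, 237 and 251 at ZT1, against 342, 504, 666 and 625 at ZT19, and fell by 1.43 ± 0.26 (adjusted p = 0.0213). Both factors were 1.89- to 2.69-fold lower at ZT1. Dbp, the third member of that family, was at 190, 151, 127 and 226 at ZT1, against 282, 216, 357 and 220 at ZT19. Its ranges touched, and the difference of -0.63 (interval -1.09 to -0.18) was not called (adjusted p = 0.124).

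Nampt, which makes the NAD precursor that links the clock to metabolism and is also secreted by fat, was tight at ZT1: 1823, 1746, 1774 and 1848, against 2841, 2603, 3615 and 4394 at ZT19. It fell by 0.87 ± 0.15 (adjusted p = 0.0213). Wee1, a kinase that holds back mitosis, fell by 0.92 ± 0.22, and Por, the electron donor of cytochrome P450 enzymes, by 0.88 ± 0.21 (adjusted p = 0.0439 for each). Nfil3, a repressor at D-boxes, and Usp2, a deubiquitinase, differed by -0.60 and -0.55 and were not called. Of the 10 called clock genes, 9 did not overlap between the times, and Nr1d1 did. The same held for 275 of all 296 called genes, so it is not particular to the clock.

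Without ZT19 replicate 3 the adjusted p of the called clock genes other than Per2 lay at or above 0.0965 and without ZT19 replicate 4 at or above 0.0597, at similar fold changes. Without ZT1 replicates 1 and 4, 8 of the 10 stayed called, while Wee1 (-1.08, adjusted p = 0.0561) and Por (-0.53, adjusted p = 0.154) did not. With the B cell and muscle lists as covariates only Per2, Cry1, Npas2 and Nr1d1 stayed called. With the 8 libraries alone none did, and with edgeR or DESeq2 all 10 did.

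Across the 4 times in sham fat, ZT1 was the lowest point of Per2, with means of 233 ± 40.1, 614 ± 61.1, 1687 ± 348 and 893 ± 252 at ZT1, ZT7, ZT13 and ZT19 (SD, n = 4 each). Per3, at 749 ± 201, 1741 ± 190, 2849 ± 651 and 1588 ± 284, and Tef, at 2124 ± 402, 5155 ± 652, 6860 ± 1224 and 4033 ± 812, were also lowest at ZT1 and highest at ZT13. In all 3 genes every ZT1 library was below every library of the other times. Arntl was high at ZT1 and ZT19 and low at ZT7 and ZT13, at 855 ± 104, 209 ± 39.7, 113 ± 25.1 and 706 ± 108. Npas2 shared that shape with a clearer peak at ZT1, at 211 ± 45.9, 20.3 ± 5.64, 10.9 ± 1.72 and 80.6 ± 16.98. Nr1d1 was lowest at ZT19 and highest at ZT7, at 2929 ± 1172, 7547 ± 1248, 4037 ± 506 and 1168 ± 385. Dbp was low at ZT1 and at ZT19 and high at the times between, at 174 ± 43.6, 1427 ± 344, 1343 ± 264 and 269 ± 66.1. ZT7 and ZT13 ranges of Dbp overlapped, as did those of ZT1 and ZT19.

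**Figure D3:**
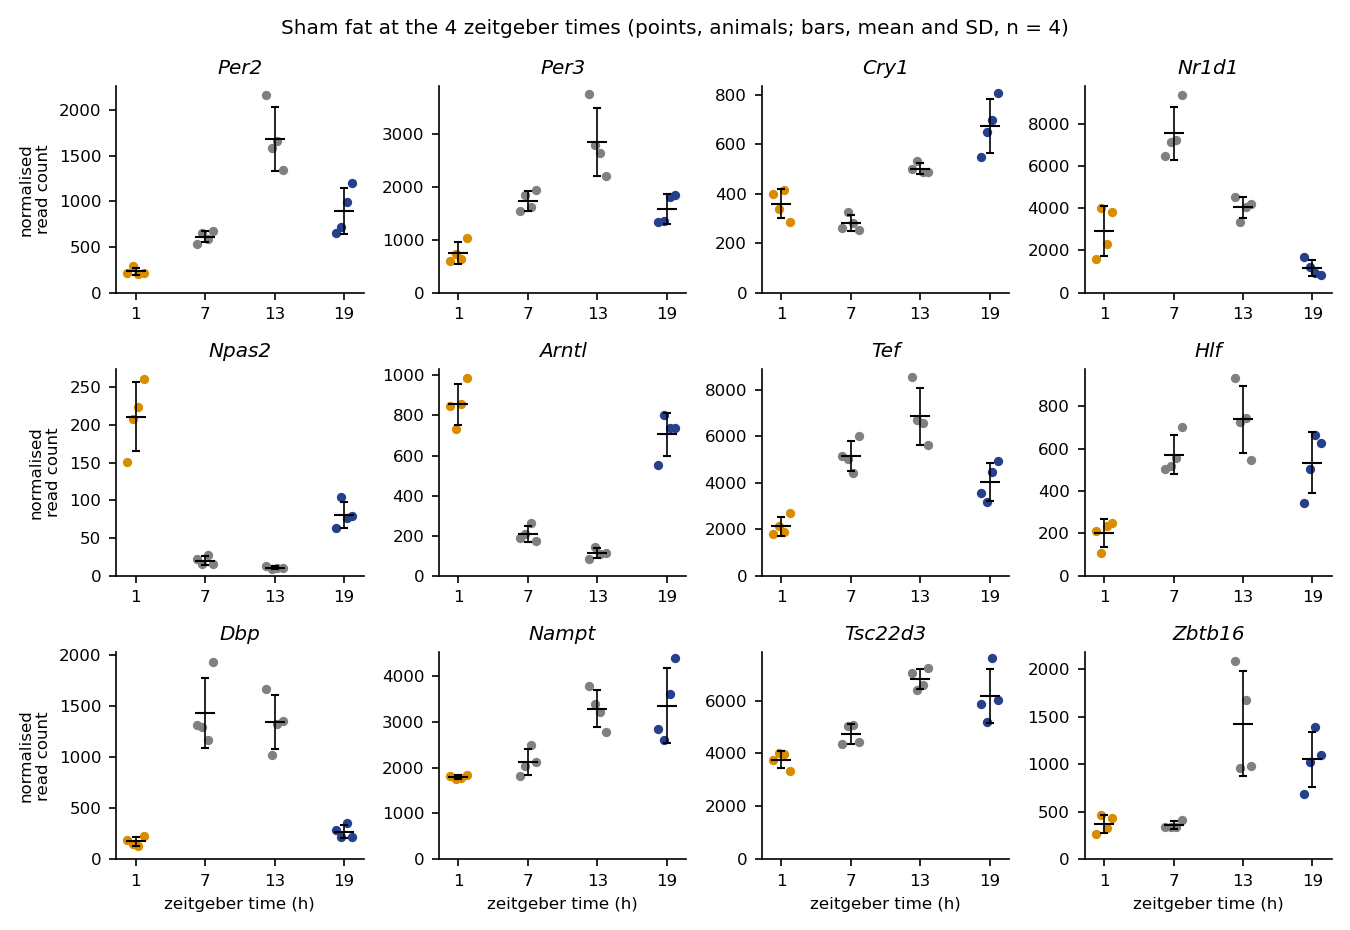
Normalised read count (y axis, linear, from 0) of 12 genes at ZT1, ZT7, ZT13 and ZT19 in sham fat; points are mice, bars are the mean and SD of 4. Per2 averages 233 at ZT1 and 893 at ZT19, and Npas2 averages 211 and 80.6.

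The deepest falls lay outside the clock. Cyp2f2, a cytochrome P450 of the lung and liver that oxidises small aromatic compounds (chromosome 7, 27119909 to 27133660, plus strand, mm10), was at 52.2, 105, 49.4 and 35.8 at ZT1, against 199, 350, 2048 and 2943 at ZT19. The ZT1 libraries lay below all ZT19 libraries, among which replicates 3 and 4 were far above replicates 1 and 2. It fell by 3.83 ± 0.78 (adjusted p = 0.0263). Acsm3, a mitochondrial medium-chain acyl-CoA synthetase, was at 15.4, 14.9, 23.1 and 15.7 at ZT1, against 43.1, 109, 190 and 535 at ZT19, and fell by 3.05 ± 0.56 (adjusted p = 0.0213). Here too the ZT19 values spread widely while the ZT1 values stayed close together. Prodh, which starts the breakdown of proline, was at 634, 1612, 982 and 829 at ZT1, against 2122, 2808, 3852 and 3833 at ZT19, and fell by 1.68 ± 0.31 (adjusted p = 0.0217).

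Adrb3, the beta-3 adrenergic receptor through which nerves drive lipolysis and heat production, was at 1499, 5125, 2637 and 1562 at ZT1, against 5342, 5982, 6863 and 15762 at ZT19. The ZT19 group was above every ZT1 library, with ZT19 replicate 4, the library rich in Ucp1, far on top. It fell by 1.69 ± 0.40 (adjusted p = 0.0439). With ZT1 replicates 1 and 4 and ZT19 replicate 4 left out the difference was -0.71 (adjusted p = 0.260). Thrsp, a nuclear protein that goes with lipid synthesis, was at 5232, 16766, 8239 and 5888 at ZT1, against 22191, 14324, 39024 and 37201 at ZT19, with 1 overlapping pair, and fell by 1.69 ± 0.36 (adjusted p = 0.0312). Without ZT1 replicates 1 and 4 these 2 genes stood at -1.06 (adjusted p = 0.163) and -1.15 (adjusted p = 0.122).

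Cdh19, a cadherin of Schwann cells, was at 40.2, 27.4, 44.8 and 66.1 at ZT1, against 144, 121, 141 and 236 at ZT19, and fell by 1.84 ± 0.27 (adjusted p = 0.0213). Chrna5, a nicotinic acetylcholine receptor subunit, was at 26.5, 43.4, 47.1 and 80.6 at ZT1, against 112, 177, 161 and 140 at ZT19, and fell by 1.65 ± 0.30 (adjusted p = 0.0213). Both stayed called without ZT1 replicates 1 and 4 (adjusted p = 0.0155 for Cdh19 and 0.0222 for Chrna5). Of the 7 genes of the Schwann cell and nerve list, 6 were on the negative side, with a median of -1.12. A single gene was called, too few to read against the 1.31% called lower among all genes. It was Sox10, the transcription factor that defines this lineage (-1.48 ± 0.36, adjusted p = 0.0499). Unlike those 2 genes, Sox10 was not called without ZT1 replicates 1 and 4 (-1.29, adjusted p = 0.0611). The summed level of the list was 9519 to 15812 at ZT1, against 12606 to 19813 at ZT19. The other genes among the 12 lowest were Ripk4 (-2.31), Orm3 (-1.92), Fam13a (-1.64) and Celsr2 (-1.59), and Orm3 has close copies with which it may share reads. Of the 11 besides Per2, 2 stayed called without ZT1 replicates 1 and 4.

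Cd40, Mcoln2, Basp1 and Stab2 had smaller differences without the 2 ZT1 libraries that stood apart. Cd40, a co-stimulatory receptor of B cells and macrophages, was at 941, 201, 190 and 394 at ZT1, against 117, 121, 105 and 119 at ZT19, and rose by 1.58 ± 0.36 (adjusted p = 0.0430). The highest values were in ZT1 replicates 1 and 4, and without them the difference was 0.76 (adjusted p = 0.0581). Mcoln2, a lysosomal ion channel of lymphocytes and macrophages, and Basp1, a membrane protein, likewise had their highest values in those 2 libraries, at 295 and 284 for Mcoln2 and at 599 and 816 for Basp1. Their differences were 1.71 and 1.44 with all libraries and 1.04 (adjusted p = 0.107) and 0.85 (adjusted p = 0.0991) without those 2. Stab2, a scavenger receptor of sinusoidal endothelium, was at 188 in ZT1 replicate 1, at 38.6 to 66.3 in the other ZT1 libraries and at 17.3 to 28.1 at ZT19. Its difference was 1.61 ± 0.39 (adjusted p = 0.0460), and 1.16 without the 2 libraries (adjusted p = 0.0754).

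Slc15a3, Slc37a2 and Lif had differences as large without those 2 libraries. Slc15a3, a lysosomal peptide transporter, was at 503, 536, 472 and 394 at ZT1, against 236, 307, 132 and 140 at ZT19, and rose by 1.30 ± 0.24 (adjusted p = 0.0221), or 1.39 without the 2 libraries (adjusted p = 0.0479). Slc37a2, a sugar phosphate transporter of macrophages, and Lif, a cytokine of the interleukin-6 family, rose by 1.39 ± 0.29 (adjusted p = 0.0279) and 1.38 ± 0.32 (adjusted p = 0.0430). Without the 2 libraries they stood at 1.41 (adjusted p = 0.0572) and 1.45 (adjusted p = 0.0602). Atp6v0d2, a proton pump subunit of osteoclasts and macrophages, was the least secure of the 11 high genes named here, at 382, 776, 495 and 601 at ZT1, against 283, 302, 85.2 and 64.4 at ZT19 (1.88 ± 0.46, adjusted p = 0.0496). The last of the 11 besides Npas2 were Vsig8 (1.73) and Tec (1.36), a kinase of blood cells, at 2.18 (adjusted p = 0.0321) and 1.05 (adjusted p = 0.102) without the 2 libraries. All 12 macrophage markers were on the positive side, with a median of 0.61, and none was called. Their summed level was 40505 to 124342 at ZT1, against 30568 to 41542 at ZT19, and its part in these rises was not tested.

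**Figure D4:**
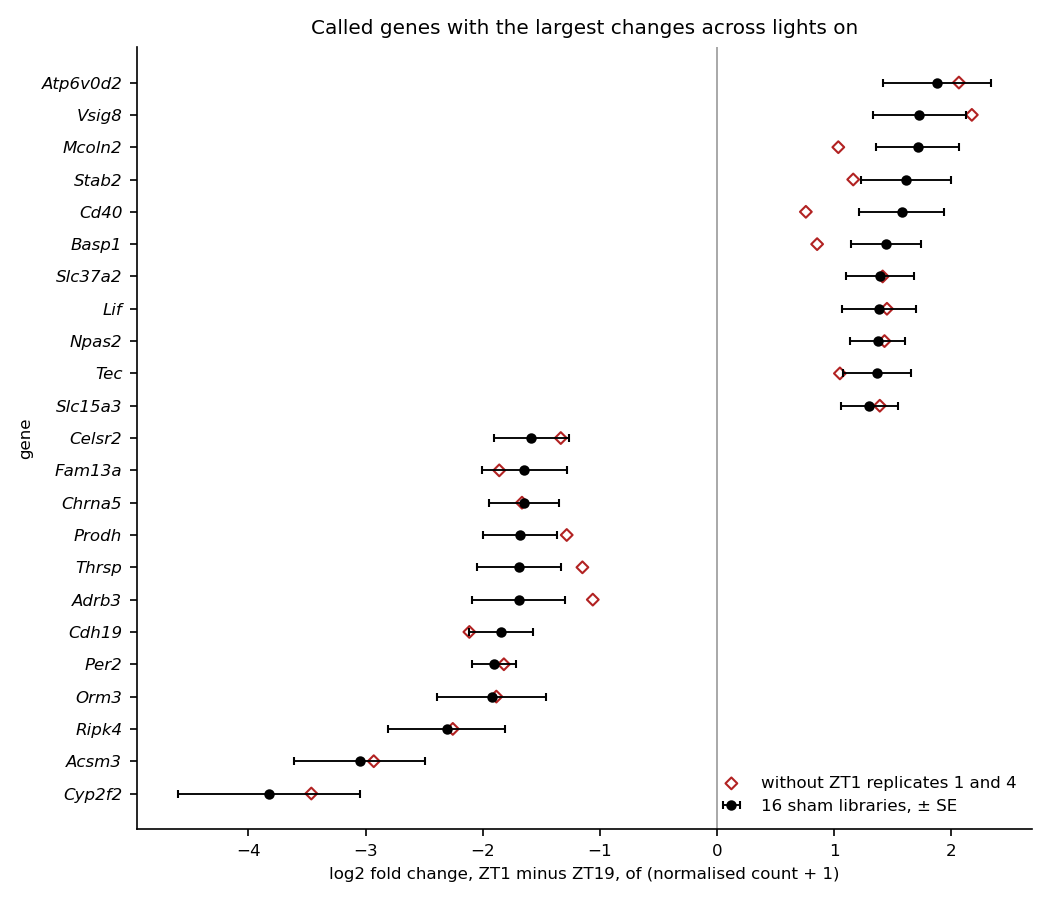
Log2 fold change, ZT1 minus ZT19 (x axis), of 11 of the highest and the 12 lowest called genes; black points and bars are the fit on 16 sham libraries with SE, red diamonds the value without ZT1 replicates 1 and 4. Cd40, Mcoln2 and Basp1 come closer to 0 without those libraries and Vsig8 moves away from it.

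Genes induced by glucocorticoids were lower at ZT1 where they were called. Of the 15 on the list, 4 fell, none rose and 11 were not called, beside 1.31% called lower among all genes. The list's median was -0.45. Zbtb16, a zinc-finger factor strongly induced by these steroids, was at 264, 461, 324 and 430 at ZT1, against 688, 1029, 1395 and 1097 at ZT19. The groups were fully apart and it fell by 1.497 ± 0.26 (adjusted p = 0.0213). Tsc22d3, which encodes the anti-inflammatory mediator GILZ, was at 3771, 4015, 3967 and 3317 at ZT1, against 5862, 5203, 7611 and 6024 at ZT19, and fell by 0.70 ± 0.11 (adjusted p = 0.0213). Zbtb16 averaged 370 ± 91.5, 358 ± 39.1, 1429 ± 553 and 1052 ± 290 at ZT1, ZT7, ZT13 and ZT19 (SD, n = 4 each), so the 2 light-phase times were low and the 2 dark-phase times high. Fkbp5, a chaperone that damps the glucocorticoid receptor, fell by 0.81 ± 0.16 (adjusted p = 0.0241), and Klf9, a transcription factor, fell by 0.78 ± 0.18 (adjusted p = 0.0430). Sgk1, Dusp1, Mt1, Mt2, Cebpd and Lcn2, also on the list, were not called and ranged from -0.51 to 0.53. Where a list has more than 2 called genes in a direction, those beyond the 2 with the smallest p, such as Fkbp5 and Klf9, are named after their values were seen. Without ZT1 replicates 1 and 4 the list had a median of -0.16 and 2 calls, Zbtb16 (adjusted p = 0.0477) and Tsc22d3 (adjusted p = 0.0399).

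Genes of glucose uptake and glycogen gave 4 falls and no rise among 20, beside 1.31% called lower among all genes. Slc2a4, the insulin-regulated glucose transporter GLUT4, was at 3584, 4977, 5320 and 5218 at ZT1, against 7095, 8246, 10489 and 9412 at ZT19, and fell by 0.89 ± 0.18 (adjusted p = 0.0253). Pygl, a glycogen phosphorylase, was at 2473, 3027, 3391 and 3273 at ZT1, against 4638, 4022, 5737 and 5398 at ZT19, and fell by 0.70 ± 0.13 (adjusted p = 0.0213). In both genes the groups were apart. Gys1, glycogen synthase, fell by 0.72 (adjusted p = 0.0402) and Ppp1r3c, which targets a phosphatase to glycogen, by 0.73 (adjusted p = 0.0373). An enzyme that builds glycogen and 1 that breaks it were thus both lower. The list's median was -0.33.

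De novo lipogenesis gave 3 falls and no rise among 17, with a median of -0.58, beside 1.31% called lower among all genes. Mlxipl, the glucose-sensing factor ChREBP, was at 1584, 3113, 2855 and 2521 at ZT1, against 4032, 3791, 5092 and 5025 at ZT19, and fell by 0.87 ± 0.19 (adjusted p = 0.0368). Scd1, the desaturase that makes oleate, was at 183343, 280707, 237804 and 210827 at ZT1, against 665899, 437240, 970047 and 435766 at ZT19, and fell by 1.39 ± 0.33 (adjusted p = 0.0460). Fasn, fatty acid synthase, was at 24438, 60201, 42593 and 11592 at ZT1, against 72575, 34923, 80692 and 51486 at ZT19. Its groups overlapped, and the difference of -0.96 (interval -1.84 to -0.09) was not called (adjusted p = 0.213). Acly, Acss2, Elovl5, Me1 and Slc25a1 lay between -0.09 and 0.12 and were not called.

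All 12 genes of branched-chain amino acid breakdown had a lower mean at ZT1, with a median of -0.53. Of these, 5 were called, beside 1.31% called lower among all genes. Dbt, a subunit of the dehydrogenase complex that commits these amino acids to oxidation, was at 1255, 1488, 1497 and 1431 at ZT1, against 1942, 2156, 2271 and 2852 at ZT19, and fell by 0.69 ± 0.13 (adjusted p = 0.0243). Ivd, the leucine-pathway dehydrogenase, was at 4844, 7052, 5901 and 4829 at ZT1, against 7558, 8337, 10774 and 13971 at ZT19, and fell by 0.82 ± 0.18 (adjusted p = 0.0344). Neither gene overlapped between the times. Mccc1, Hibch and Acadsb fell by 0.61, 0.55 and 0.47, and Bckdha, at -0.63, missed the threshold (adjusted p = 0.0584).

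Other fuel lists gave single calls, too few to read against the 1.9% called among all genes. Klf15, a transcription factor that drives amino acid breakdown and answers to fasting and glucocorticoids, was at 918, 1876, 1703 and 916 at ZT1, against 2610, 2422, 3324 and 2196 at ZT19, and fell by 1.02 ± 0.24 (adjusted p = 0.0430), 1 of 19 genes of insulin signalling and FoxO. Asns, the asparagine synthetase of the amino acid stress response, was at 1135, 1114, 1421 and 1142 at ZT1, against 1634, 1846, 3118 and 4029 at ZT19, and fell by 1.05 ± 0.21 (adjusted p = 0.0253), 1 of 16. Among 22 genes of fatty acid oxidation, Acot2, a mitochondrial thioesterase with a near-identical neighbour that may share its reads, fell by 0.62 ± 0.14 (adjusted p = 0.0424), and 20 of the 22 were on the negative side. Adrb3 was the single call among 20 genes of lipolysis, and Nr4a2, an orphan nuclear receptor induced by cyclic AMP, the single call among 22 immediate early genes (-0.84 ± 0.19, adjusted p = 0.0368). The mean of the adipocyte list was lower in 3 of 4 ZT1 libraries than in any ZT19 library, and its part in the falls of fuel genes was not tested. Without ZT1 replicates 1 and 4 no gene of the glucose, lipogenesis or branched-chain lists was called, and their medians were -0.17, -0.17 and -0.36. In that setting Acot2 stayed called (adjusted p = 0.0453), while Klf15 stood at -0.54 (adjusted p = 0.151), Asns at -0.98 (adjusted p = 0.0754) and Nr4a2 at -0.89 (adjusted p = 0.0654). The median of the fatty acid oxidation list was -0.36 with all libraries, -0.12 in that setting and 0.05 with ZT19 replicate 4 left out as well.

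**Figure D5:**
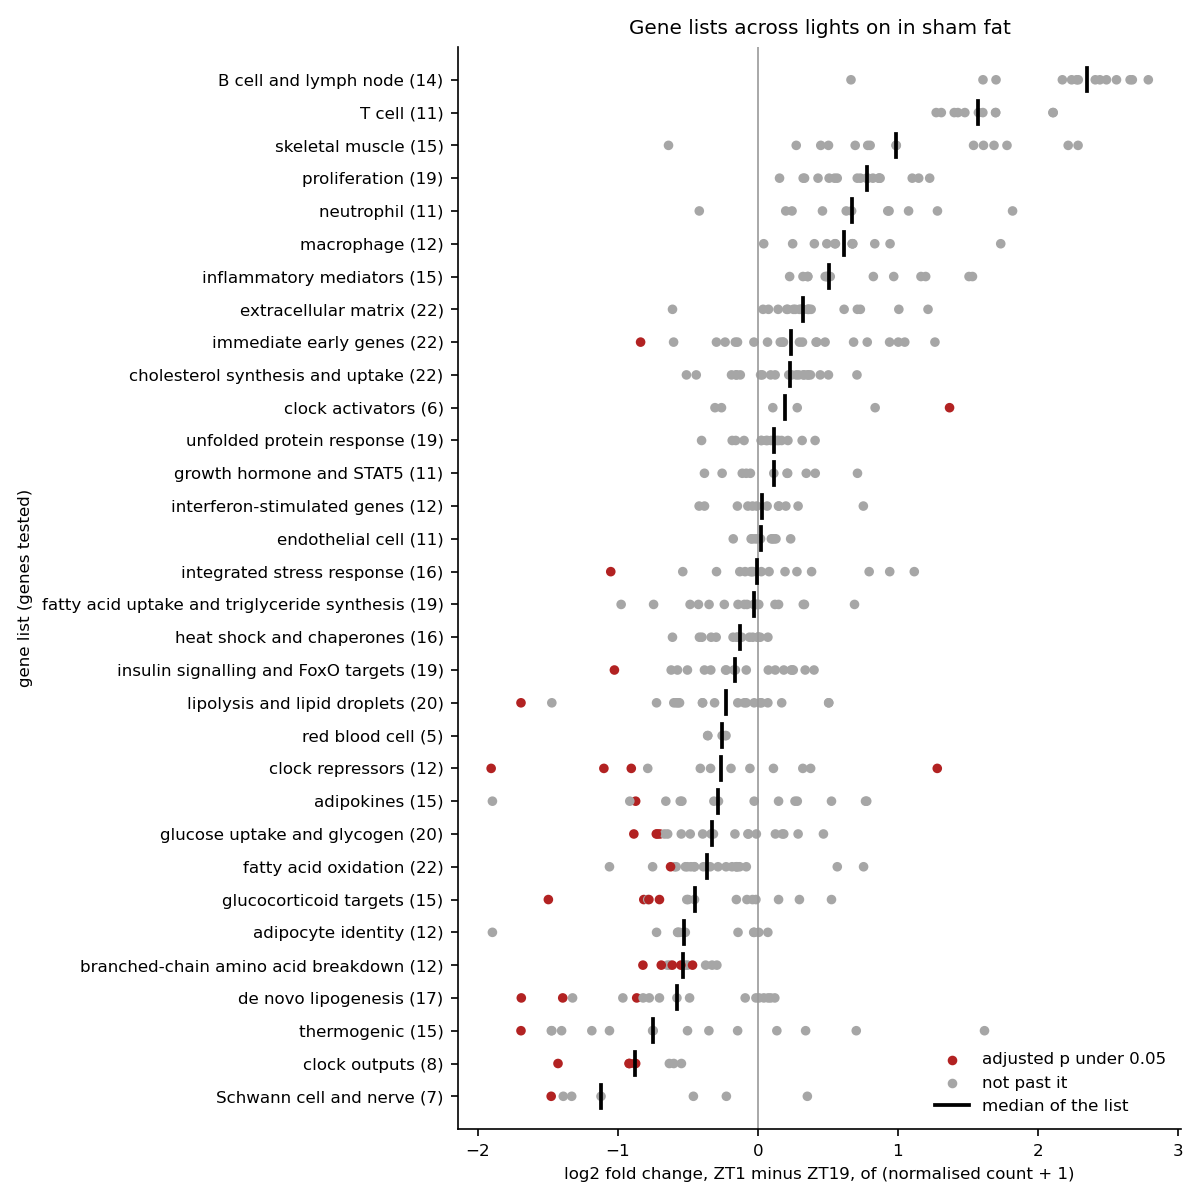
Log2 fold change, ZT1 minus ZT19 (x axis), of every tested gene in each list with at least 5 tested genes (rows, number tested in brackets); red points are called by limma, grey points are not, and the black tick is the list's median. Called genes sit mostly left of 0, in the clock, glucocorticoid and fuel lists, while the lymphocyte, muscle and proliferation lists lie right of 0 with none called.

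Genes often followed in fat were mostly not called. Lep, the leptin gene, was at 85937, 120719, 148495 and 97527 at ZT1, against 161584, 130080, 125223 and 27319 at ZT19, with ZT19 replicate 4 lowest of all, and its difference was 0.27 (interval -0.60 to 1.13, adjusted p = 0.757). Without that library the direction turned, to -0.32 (adjusted p = 0.436). Cish, a target of growth hormone and STAT5, differed by 0.11 (adjusted p = 0.912). Pdk4, a brake on glucose oxidation, differed by -0.45 (adjusted p = 0.540), and Lpin1, a phosphatase of triglyceride synthesis, by -0.35 (adjusted p = 0.255). Adipoq and Fabp4 both differed by -0.03. No gene was called among 16 heat shock genes, 19 of the unfolded protein response, 22 of cholesterol synthesis and uptake, 19 of fatty acid uptake and triglyceride synthesis, 11 of growth hormone and STAT5, 12 interferon-stimulated genes, 11 endothelial, 11 neutrophil, 5 red blood cell and 2 cold-inducible genes. Epidermal and mammary markers were mostly under the minimum level, with 3 and 1 tested.

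The same interval after VSG gave 963 calls (6.18%), 545 higher and 418 lower at ZT1. The split turned with the scaling, to 480 higher and 519 lower with TMM and to 621 higher and 950 lower with quantile normalisation. Without ZT1 replicate 1 or 3, or without ZT19 replicate 2 or 4, of the VSG libraries 10 to 69 genes were called, without ZT1 replicate 2 or 4 of them 1565 to 1623, and without ZT19 replicate 3 of them 625. The call was shared in direction by 115 genes, 38.9% of the sham calls and 11.9% of the VSG calls. Of the 296 genes called in sham, 292 had the same sign in the separate VSG animals (98.6%), against 72.1% of all tested genes. With the B cell and muscle lists as covariates in the VSG fit these shares were 94.6% and 59.0%. Per2 fell by 1.91 in sham and fell by 1.57 in VSG (adjusted p = 5.59e-04), and Cry1 fell by 0.90 in sham and fell by 0.92 in VSG.

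No gene was called for a difference between the sham and the VSG change. limma called 0 of 15588, with 483 at an unadjusted p under 0.05, edgeR called 0 and DESeq2 called 3. For Npas2 the change in sham was larger by 0.70 ± 0.33, with an adjusted p of 0.995. The smallest p belonged to Bcl6, a transcriptional repressor in immune and fat cells, at 2062 ± 361 and 2742 ± 864 at ZT1 and ZT19 in sham and at 2954 ± 693 and 1394 ± 738 in VSG (SD, n = 4 each). The 5 next were Tmub1, D630003M21Rik, Hpx, Efnb2 and Enc1. D630003M21Rik was called within sham (-1.23 ± 0.24, adjusted p = 0.0252), at 14.9 to 26.5 at ZT1 and 45.8 to 59.0 at ZT19, and differed by 0.33 in VSG (adjusted p = 0.519). All 6 had an adjusted p of 0.995 for the difference.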

How the data were processed

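RNA of frozen subcutaneous fat was extracted with Trizol and sequenced from TruSeq libraries, per the labels' protocols. The submitters' processing notes name the build mm10, STAR (version 2.5.2a), DESeq2 (1.24.0), R (3.6.3), featureCounts (1.5.0-p1) and bcl2fastq (2.17.1.14), with no roles or order. The deposited signal values are normalised read counts per gene: in every library 100% of them were whole multiples of 1 step within 0.001, so whole reads were recovered for edgeR and DESeq2. Other deposited tables were not used here.

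Of 18124 genes, the 15588 whose mean over the 32 libraries reached 10 were tested. In R 4.3.3, limma 3.58.1 with its trend option was run on log2(value + 1) of the 16 sham libraries with 1 mean per time, and Benjamini-Hochberg adjustment over all tested genes, with calls at an adjusted p under 0.05. The VSG change and the difference between operations came from a fit of all 32 libraries with 8 means. Weight loss was compared by exact permutation over animals. Named genes were the 12 highest and 12 lowest called genes with a mean of at least 50 (predicted and clone names left out), all clock genes, up to 2 called genes per direction of each of 35 lists, the 6 smallest p for the difference between operations, and Lep, Cish, Pdk4, Fasn, Lpin1 and Ucp1. Some genes are not reported here and were left out of the named genes and the lists, though not of the fits. Members and lists were chosen with earlier results of these data known. Coordinates are those of GENCODE vM21 and promoters those of RefSeq.

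Other settings tried were TMM, a minimum mean of 50 or none, pseudocounts of 5 and 0.5, quantile normalisation, array weights, edgeR 4.0.16, DESeq2 1.42.0, the B cell and muscle lists or weight loss as covariates, all 32 libraries, the 8 libraries alone and leaving out each library. Leaving out ZT1 replicates 1 and 4, those and ZT19 replicate 4, or ZT1 replicates 1 and 4 from all 32 libraries was chosen after seeing the data. Scripts were tested on simulated data. No pair of libraries of a group agreed within counting noise, so none was treated as 1 library deposited again. Replicates are separate mice by the design text and are numbered in accession order.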

Additional observations from a re-analysis of the deposited data

Results flagged for a closer look

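Of 214 sets of 4 values checked, 13 had a highest or lowest sample farther from the rest than Dixon's 95% critical value for 4 samples allows. Chance flags about 1 in 20 such sets, and many of these come from the 3 libraries described above.

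In ZT1 replicate 1 the mean log2 level was 12.1 for the B cell and lymph node list, against 6.21 to 7.0 in the other ZT1 libraries, and 11.4 for the T cell list, against 5.33 to 5.70. Its glucocorticoid target list was low, at 9.74 against 10.41 to 10.44. In ZT1 replicate 4 the skeletal muscle list was at 7.77, against 3.80 to 4.29, the weight loss was 8.96, against 2.15 to 2.63, and Pdk4 was at 2487, against 1166 to 1331.

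In ZT19 replicate 4 Ucp1 was at 1352, against 5.27 to 13.3 in the other ZT19 libraries, and the thermogenic list had a mean log2 level of 9.01, against 6.99 to 7.21. Adrb3 was at 15762 there, against 5342 to 6863, and Bcl6 at 4035, against 2245 to 2395.

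The remaining cases were small in size. ZT1 replicate 2 had Per2 at 293, against 205 to 220 in the other ZT1 libraries. ZT1 replicate 3 had Acsm3 at 23.1, against 14.9 to 15.7, and Asns at 1421, against 1114 to 1142. In each of these 3 genes that sample was still below every ZT19 library.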

How the results depend on the processing

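The sham count of 296 was 62 with array weights, 450 with edgeR (206 higher, 244 lower), 1311 with DESeq2 (697 higher, 614 lower), 8 with the B cell and muscle lists as covariates, 194 with all 32 libraries (146 among the 296) and 0 with the 8 libraries alone, where 1693 had an unadjusted p under 0.05 in limma. Leaving out 1 library gave 1 to 596 calls. Without ZT1 replicates 1 and 4 it was 135, without those and ZT19 replicate 4 it was 118 and with all 32 libraries less those 2 it was 121. The VSG count of 963 was 1571 with quantile normalisation, 1849 with array weights, 1504 with edgeR, 2206 with DESeq2 and 120 with the covariates. Leaving out 1 VSG library gave 10 calls (without ZT1 replicate 3) to 1623 (without ZT1 replicate 2). For the difference between operations DESeq2 called 3 genes and the other alternatives called 0. The difference in weight loss lay between -3.77 and -1.50 without 1 animal and was -4.06 by medians. No called gene named in the text changed sign. Lep, which was not called, did without ZT19 replicate 4. The median of the lipolysis list was 0.04 and that of the adipokine list 0.08 without ZT1 replicates 1 and 4, against -0.23 and -0.28 with all libraries. The cause of these shifts was not tested. No paired analysis was possible because replicates are numbered in accession order and the titles at ZT1 and ZT19 share only 1 number.

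Calls near the threshold, groups of 4 and 3 libraries with other cell types' genes limit these results. Depth was 21.6 times 1e6 reads or more, and its effect was not compared with theirs. Genes under a mean of 10 were not tested, and intervals of genes not called are wide, so a missed threshold does not show equal levels.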

Other observations

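Genes of cell division had a higher mean at ZT1 without any being called. All 19 of the proliferation list were on the positive side, with a median of 0.78 and 10 at an unadjusted p under 0.05. The mean log2 level of the list was 8.64, 8.21, 8.47 and 7.18 in ZT1 replicates 1 to 4, against 7.74, 7.42, 7.56 and 6.93 in ZT19 replicates 1 to 4. Within each time replicate 4 was the lowest. The largest differences were those of Ccnb2, a mitotic cyclin (1.23 ± 0.41, adjusted p = 0.122 by limma), and Top2a, a topoisomerase of dividing cells (1.15 ± 0.46, adjusted p = 0.188 by limma). Without ZT1 replicates 1 and 4 the median was 0.99.

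Inflammatory mediators showed a like picture. All 15 were on the positive side, with a median of 0.51, 5 at an unadjusted p under 0.05 and none called. Their mean log2 level was 7.45, 7.14, 7.55 and 7.55 at ZT1, against 7.06, 6.95, 6.18 and 6.57 at ZT19. The groups did not overlap, which was not particular to this list among the 35 looked at. The list means of immediate early genes, also higher at ZT1, did not overlap either. Nor did those of clock repressors, clock outputs, heat shock genes and branched-chain amino acid breakdown, which were lower at ZT1. Among single tested genes 7.29% showed such a separation. Ccl2, a chemokine that draws monocytes, differed by 1.53 ± 0.44 (adjusted p = 0.0787 by limma). Of the 22 genes of the extracellular matrix list, 21 were on the positive side, with a median of 0.32, and none was called. Their mean log2 level was 12.79, 13.55, 13.51 and 13.70 at ZT1, against 13.29, 13.14, 13.36 and 12.32 at ZT19. These groups overlapped, and ZT19 replicate 4, the library rich in Ucp1, was the lowest. The macrophage list was highest in ZT1 replicate 4, and its part in these values was not tested.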
